A study of Homo sapiens with 48 samples.

Results

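The change in gene expression between 12 and 24 h with TGFβ and IL-1β was described in CRISPRko control fibroblasts, in the 3 libraries labelled as control at 24 h and the 3 labelled as control at 12 h. These are 6 of the 48 RNA-seq libraries of the series, chosen by their labels and not by any measured value. The cells were CRL-4001 human skin fibroblasts, an immortalized line, in which the fluorescent protein mNeonGreen had been joined to IL11 (IL11mNG fibroblasts, sorted as single-cell clones). They carried Cas9 and a lentiviral guide labelled as control, and were kept as a selected bulk population. Both groups had received TGFβ and IL-1β at 10 ng per ml each, so the groups differ in the 12 and 24 h of exposure and in nothing else that the labels give. All cells were collected together, and the shorter exposures were started later. The genotype label of the controls reads wild type, although the cell line label names a GLIS3 knockout for every library of the arm, the controls included. The study describes the replicates of its cell culture experiments as independent biological ones in general, and the labels do not say how the 3 libraries of a time were cultured. The p-values rest on a spread estimated over all 24 libraries of the CRISPRko arm, not over the 6 compared alone. That spread between libraries may be in part technical. The other groups used here are GLIS3 CRISPRko cells, which carried Cas9 and a guide against GLIS3, and 2 groups with the activator dCas9–VP64, called VP64_Ctrl and VP64_A as in their descriptions, because their titles give the opposite assignment. Each has 3 libraries at 12 h and 3 at 24 h under the same cytokines.

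TGFβ binds serine/threonine kinase receptors and acts through SMAD transcription factors, and in fibroblasts it is known for inducing matrix and contractile genes. IL-1β acts through MyD88 and the kinases IRAK and TAK1 on NF-κB and AP-1, and in fibroblasts it is known for inducing cytokines, chemokines, prostaglandin synthase and matrix proteases. Several NF-κB targets encode inhibitors of the pathway itself, and the messenger RNAs of many cytokines are short-lived.

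The estimated counts summed to 2614219, 3085054 and 3108805 in the 12 h libraries, and to 5560364, 2485059 and 4257158 in the 24 h libraries. The 50 most abundant genes took 41.2% ± 1.65 (SD, n = 3) of the counts at 12 h and 45.02% ± 1.23 (SD, n = 3) at 24 h, so composition moved with time, and its part in the results was not tested. Fibroblast markers were present in every library, with 0 of 10 at 0 and VIM, an intermediate filament, the most abundant at 19008 to 20451 TPM (transcript abundance per length on one total per library) at 12 h and 20046 to 23178 TPM at 24 h. The immune markers PTPRC, ITGAM, AIF1, TYROBP and LYZ and the epithelial markers EPCAM, KRT5, KRT19 and ESRP1 were listed at 0 in all 6 libraries. Immune markers summed to between 16.1 and 31 TPM per library, most of it from CD68, a lysosomal protein (16 to 27.4 TPM). Epithelial markers summed to 623, 905 and 912 TPM at 12 h and to 547, 578 and 592 at 24 h, nearly all from KRT18, a keratin, and 0 of the 3 tested were called. Endothelial markers summed to between 1.23 and 2.70 TPM per library. Smooth muscle and pericyte markers summed to 112, 138 and 103 TPM at 12 h and to 104, 153 and 175 TPM at 24 h. MYH11, a defining smooth muscle gene, had a mean of 0.0294 TPM over the 6 libraries. GLIS3, a Krüppel-like zinc-finger factor, lay at 3.31, 3.6 and 2.18 normalized CPM (counts scaled to one total by the TMM-scaled library size) in the 12 h controls and at 2.47, 2.8 and 3.8 in the 24 h controls. In GLIS3 CRISPRko cells it lay at 1.45, 0.933 and 1.57 at 12 h and at 1.04, 1.21 and 1.63 at 24 h, below every control library of those times. The controls' values rest on 6 to 16 counts per library, and their log2 fold change from 12 to 24 h was -0.0017 (standard error 0.455, adjusted p = 0.999).

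Between 12 and 24 h, 947 of 10962 genes changed in the control fibroblasts, 8.64% of those tested, with 443 higher (4.04%) and 504 lower (4.6%) at 24 h. The test was edgeR's quasi-likelihood F test over the 24 libraries of the CRISPRko arm, and a gene was called where its p, adjusted by the Benjamini-Hochberg method, was under 0.05. In such bulk libraries fewer cells of a kind and less RNA per cell cannot be told apart. The median log2 fold change was 0.95 among the genes called higher, -0.96 among those called lower and 0.0027 over all genes tested. Of the called genes, 207 rose and 236 fell by at least 1 on the log2 scale, and 57 rose and 62 fell by at least 2. The genes with the smallest p-values fell: ANGPTL4, TRAF1 and CSF2 had adjusted p-values of 2.36e-14, 2.71e-13 and 8.39e-13. For 930 of the 947 called genes the 3 libraries at 24 h lay wholly above or below the 3 at 12 h. Over all genes tested, 14.5% had their libraries wholly higher at 24 h and 14.1% wholly lower. Without the first 24 h library, the deepest of the 6, 525 genes were called, and without the first 12 h library 576. In every fit that left out 1 of the 6 libraries, 145 of the 443 genes called higher and 230 of the 504 called lower remained called.

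**Figure D1:**
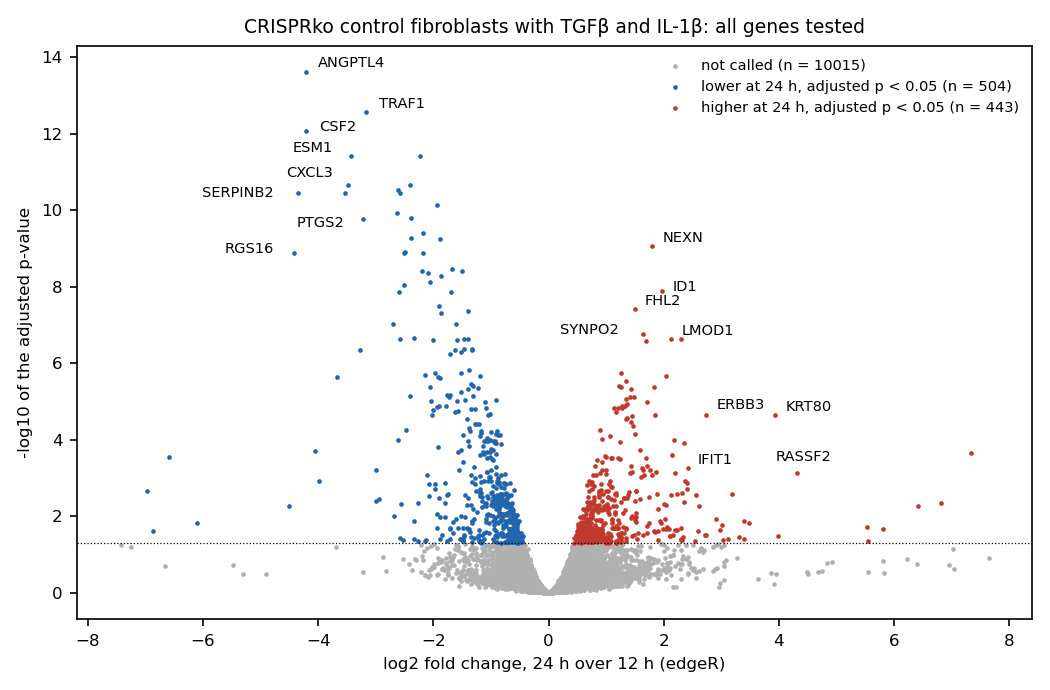
Each point is 1 of the 10962 genes tested, with the log2 fold change from 12 to 24 h on the x axis and -log10 of the adjusted p-value (edgeR) on the y axis; the dotted line marks an adjusted p of 0.05. The 504 genes called lower (blue) reach smaller p-values than the 443 called higher (red), and ANGPTL4, TRAF1 and CSF2 stand at the top.

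Cytokines of the IL-6 family, IL-1 and the colony-stimulating factors fell in a larger share of members than any other list examined. The lists were chosen with earlier results of these data known, so this ranking is a description only. Of 12 listed genes 9 were expressed enough to be tested, and 7 fell (77.8%, against 4.6% of all genes tested) while 0 rose. The median log2 fold change was -2.41. CSF2, which encodes the granulocyte-macrophage colony-stimulating factor (chromosome 5, 132073789 to 132076170, GRCh38), was the most abundant of the list at 1371 TPM over the 6 libraries. It lay at 1036, 912 and 971 CPM in the 12 h libraries and at 52, 50.9 and 54.9 in the 24 h libraries. The groups were far apart and the libraries of each time close together, an 18.5-fold decrease of the means (log2 fold change ± standard error -4.21 ± 0.27, as for all such values, adjusted p = 8.39e-13). CSF2 was close to absent without cytokines, at 0.405, 0 and 0.27 CPM at 0 h, and at 6 h it lay at 436, 749 and 825, so 12 h was the highest of the times sampled and 24 h lay below both. IL1B, which encodes one of the added ligands, was at 2230.3, 1202 and 1571 CPM at 12 h and at 239, 251 and 275 at 24 h. All 3 later libraries lay below all 3 earlier ones, with the first 12 h library the highest (log2 fold change -2.71 ± 0.30, adjusted p = 9.28e-08).

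CSF3, the granulocyte colony-stimulating factor, fell from 137 ± 48.4 to 11.5 ± 3.6 CPM (means ± SD, n = 3 each; log2 fold change -3.53 ± 0.26). CSF1, the macrophage growth factor, fell from 71.5 ± 14.8 to 19.6 ± 0.446 CPM, a 3.65-fold decrease. LIF, an IL-6 family ligand that signals through gp130, followed another course from CSF2: it stood at 525, 1072 and 912 CPM at 6 h, had come down to 29.8, 40.2 and 24.7 by 12 h, and was at 5.9, 7.48 and 4.99 at 24 h. Its further fall was 5.15-fold (log2 fold change -2.41 ± 0.34, adjusted p = 7.22e-06). IL6 and IL1A fell by 2.04 and 2.48 on the log2 scale. The gene tagged in these cells, IL11 (chromosome 19, 55364382 to 55370463, GRCh38), lay at 25.4, 10.8 and 15.6 CPM at 12 h and at 5.14, 14.5 and 6.18 at 24 h. The groups overlapped, because the second 24 h library lay above the second 12 h library, and IL11 did not pass the test (log2 fold change -1.11 ± 0.37, adjusted p = 0.0587). Without that 24 h library the adjusted p was 0.00869, and without the second 12 h library 0.034. It also passed in a fit of the 6 libraries alone (adjusted p = 0.0284), in a fit of the 12 control libraries (0.0424) and with no filter on low counts (0.0127).

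**Figure D2:**
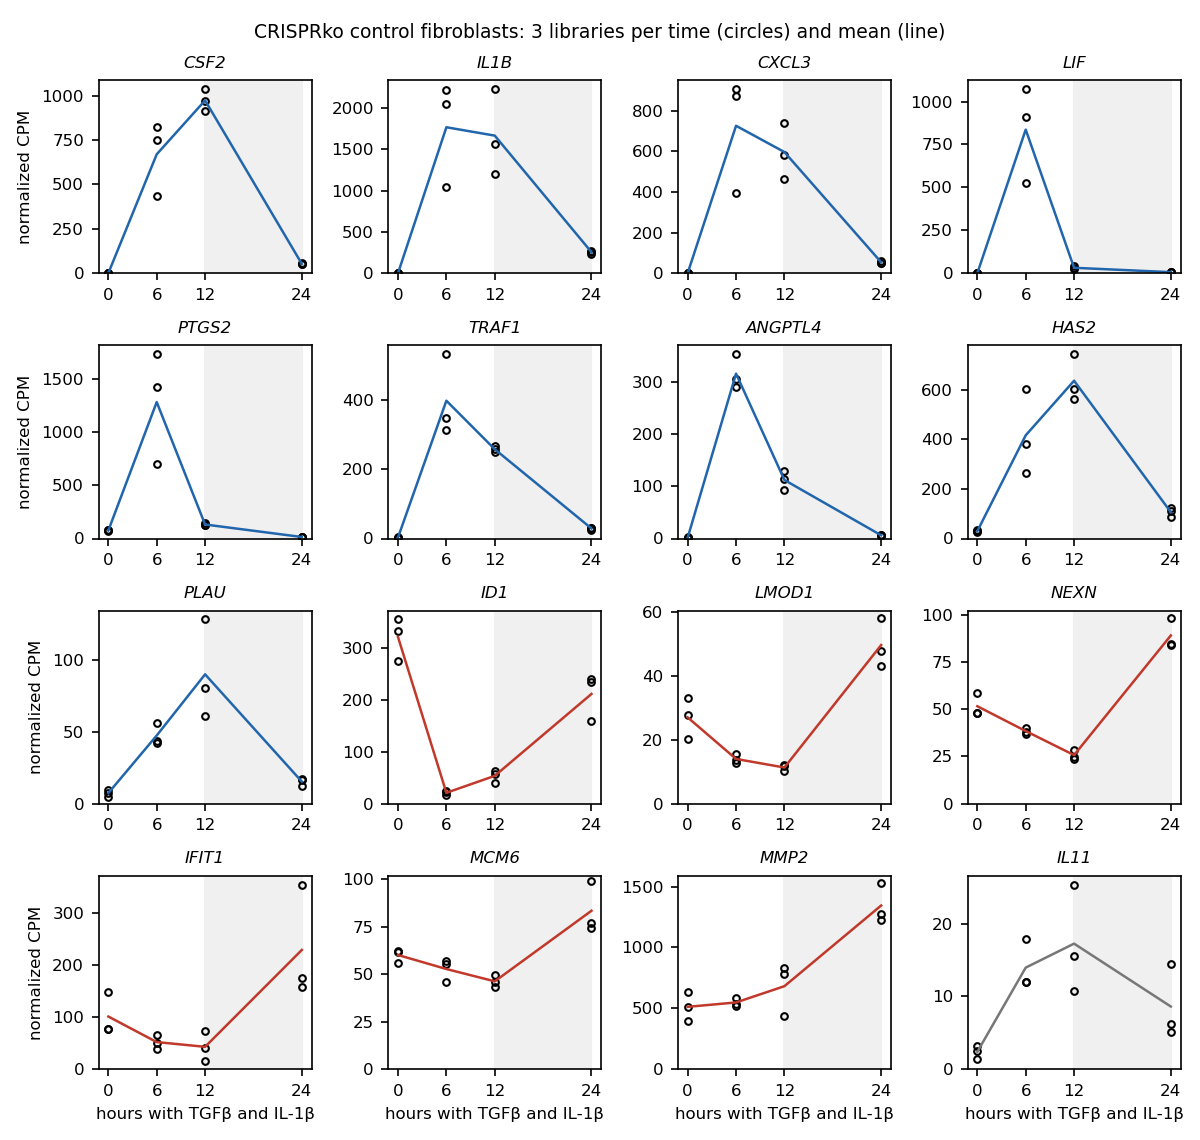
Normalized CPM (y axis, linear, from 0) of 16 genes against hours with TGFβ and IL-1β (x axis) in CRISPRko control fibroblasts; circles are the 3 libraries of each time, lines join the means, blue and red mark genes called lower and higher at 24 h than at 12 h, grey a gene not called, and the shaded span is the step from 12 to 24 h. CSF2 and HAS2 are highest at 12 h and LIF, PTGS2 and ANGPTL4 at 6 h, whereas ID1 is low at 6 and 12 h and higher at 0 and 24 h.

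The chemokines divided. CXCL3, CXCL1, CXCL2 and CCL20 fell, 4 of 12 tested (33.3%, against 4.6% of all genes tested), and 0 rose. The median over the 12 was -1.20. In the 6 libraries alone 9 were tested and 4 were called lower, and the median was -0.33. CXCL1, CXCL2 and CXCL3 attract neutrophils through CXCR2 and lie close together on chromosome 4; they are near-identical copies, and Salmon shares reads between them, so the split among them is uncertain. CXCL3 lay at 741, 463 and 584 CPM at 12 h and at 51.4, 58.4 and 51.6 at 24 h (log2 fold change -3.47 ± 0.26). CXCL1 was at 1359, 1022 and 1178 CPM and then at 218, 276 and 211 (log2 fold change -2.34 ± 0.27). CXCL2 was at 190.1, 144 and 137 CPM and then at 23.4, 48.1 and 37.8 (log2 fold change -2.15 ± 0.28, adjusted p = 1.99e-06). In each of the 3 genes the times did not overlap. CCL20, which attracts cells through CCR6, had 9, 8 and 3 counts in the 12 h libraries and 0 in each 24 h library, at least 9.06-fold higher at 12 h if 3 counts over the 24 h group are taken as the floor. The most abundant chemokine, CXCL8 (listed as IL8, 18127 TPM), lay at 28428, 24715 and 26087 CPM at 12 h and at 12647, 11726 and 11523 at 24 h. Its libraries did not overlap, with a 2.21-fold lower mean at 24 h, but its adjusted p was 0.143 in the fit over the arm, 0.0488 in the 12 control libraries and 0.000379 in the 6 libraries alone.

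The promoters of these genes are shown because NF-κB sites before chemokine genes are a textbook feature of their induction. Of the 10962 genes tested, 8962 matched a RefSeq promoter (GRCh38.p14). In the 250 bases before the start, the 10-base NF-κB consensus was found on either strand in 5.8% of all matched promoters, in 9.47% of the 412 matched promoters of genes called lower and in 6.56% of the 366 of genes called higher. A match is a description of the letters and not evidence of binding. The capitals below mark the match, with 25 bases on each side and the gene's own strand written 5′ to 3′; in the 3 chemokines a second match overlaps the first by all but 1 base. NFKB1, a gene of the pathway that also fell, is set beside them. Among the other genes described here the consensus was also found in pathway genes that did not pass, NFKBIA and TNFAIP3. It was also found in CCN2 (listed as CTGF) and RRM2, which did not pass either, and in LOXL4, which was called higher. Genes called lower that held it included CCL20, IL6 and IRF1. None was recorded for TRAF1, TNIP1 or IRAK2, which were called lower too, and a gene without a matched promoter would also have none.
CXCL1, chr4:73869289-73869348, plus strand: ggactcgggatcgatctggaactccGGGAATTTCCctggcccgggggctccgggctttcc
CXCL2, chr4:74099239-74099298, minus strand: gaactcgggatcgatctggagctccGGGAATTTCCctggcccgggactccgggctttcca
CXCL3, chr4:74038734-74038793, minus strand: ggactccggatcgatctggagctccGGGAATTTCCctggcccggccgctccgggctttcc
NFKB1, chr4:102501285-102501344, plus strand: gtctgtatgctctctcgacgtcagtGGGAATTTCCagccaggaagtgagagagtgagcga
The match begins 79 bases before the start in CXCL1 and CXCL3, 78 in CXCL2 and 49 in NFKB1, and the same 10 letters stand in all 4.

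Genes that act in or restrain the NF-κB pathway fell in part. Of 18 tested, 7 fell (38.9%, against 4.6% of all genes tested) and 0 rose, with a median of -0.60. TRAF1, an adaptor of TNF-receptor signalling, was at 258, 266 and 248 CPM at 12 h and at 25.7, 29.4 and 31.4 at 24 h, with little spread at either time (log2 fold change -3.16 ± 0.19, an 8.92-fold decrease). TNIP1, which binds the deubiquitinase A20, changed by -1.34 ± 0.27, IRAK2, a kinase of the IL-1 receptor complex, by -1.19 ± 0.25 and NFKB1, the p105/p50 subunit, by -0.97 ± 0.23 on the log2 scale. TNIP2, BIRC2 and NFKBIB fell by 0.82, 0.55 and 0.81, and each lost its call in 4 of the 6 fits that left out a library. The count lay between 3 and 8 over the alternatives, and NFKB1 lost its call in limma on log2(TPM + 1) (adjusted p = 0.143). Of the feedback inhibitors, NFKBIA (IκBα) had a log2 fold change of -0.23 ± 0.17 and TNFAIP3 (A20) of -0.25 ± 0.19, and neither passed. SOD2, the mitochondrial superoxide dismutase and the most abundant of the list at 1286 TPM, lay at 1012, 981 and 904 CPM at 24 h, against 1172, 949 and 1161 at 12 h and 13, 14.2 and 13.2 without cytokines (adjusted p = 0.712). ICAM1, an adhesion molecule chosen after its values were seen, went from 161, 204 and 203 CPM to 30.5, 40.2 and 31.9 (log2 fold change -2.49 ± 0.23). With the AP-1 and immediate early factors, 0 of 12 tested were called in either direction, where 8.64% of all genes tested were. Their median was 0.05, against -0.10 without the first 24 h library and 0.20 without the second 12 h library. IER3, the most abundant of the list at 1439 TPM, was lower in the 6 libraries alone (adjusted p = 0.038). JUN had a log2 fold change of 0.02 ± 0.26 and FOSL1 of -0.35 ± 0.25, neither of which passed.

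The largest decreases among genes with at least 5 CPM at the higher time were spread over genes of several functions. RGS16, a GTPase-activating protein that damps G-protein signalling, was at 27.6, 18.6 and 17 CPM at 12 h and at 0.952, 1.4 and 0.713 at 24 h, a 20.6-fold decrease (chromosome 1, 182598623 to 182604389, GRCh38). SERPINB2, the plasminogen activator inhibitor type 2, was at 4365, 2804 and 3162 CPM at 12 h and at 160.2, 182 and 166 at 24 h (chromosome 18, 63871692 to 63903888). The 24 h libraries of SERPINB2 lay close to each other and far under the 12 h libraries (log2 fold change -4.35 ± 0.34, adjusted p = 3.43e-11). ANGPTL4, a secreted inhibitor of lipoprotein lipase, was at 129, 115 and 92.8 CPM at 12 h and at 4.57, 6.54 and 7.37 at 24 h; its 6 h libraries were higher still, at 306, 290.2 and 353. ESM1, a secreted proteoglycan of endothelial cells (endocan), fell from 401 ± 42.8 to 36.6 ± 5.79 CPM and PTGS2, the inducible cyclooxygenase, from 131 ± 10.9 to 14 ± 0.834. PTGS2 had stood at 695, 1727 and 1418 CPM at 6 h and at 76.8, 80.3 and 67.5 without cytokines, so its 24 h level was below the unstimulated one in every library. Of the 6 prostaglandin genes tested PTGS2 alone passed (16.7%, against 8.64% of all genes tested). PTGS1, the constitutive enzyme, lay at 177, 185 and 167 CPM at 24 h against 183, 123 and 131 at 12 h. DLL4, a Notch ligand, changed by -3.67 ± 0.48 and MTSS1, an actin-binding scaffold, by -3.28 ± 0.40 on the log2 scale. MALL, a membrane raft protein, rested on 15, 23 and 14 counts at 12 h and 3, 0 and 1 at 24 h, a ratio of 17.7 with an exact 95% counting interval from 6.50 to 67.3.

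Growth and angiogenic factors, 2 of their receptors included, fell in 5 of 20 tested genes and rose in 1. That was 30% called, against 8.64% of all genes tested, of which 4.6% fell and 4.04% rose. Besides ANGPTL4 those that fell included STC1, a secreted glycoprotein hormone (-1.88), and HBEGF and EREG, ligands of the EGF receptor (-1.97 and -1.78, all log2 fold changes). HBEGF, like LIF, was highest at 6 h, at 161, 214 and 173 CPM, and lay at 25, 23.9 and 20.3 at 12 h and 5.14, 5.14 and 7.13 at 24 h. The gene that rose was IGFBP3, an insulin-like growth factor binding protein, at 2776, 3369 and 6111 CPM at 12 h and 7962, 10457 and 7443 at 24 h. The third 12 h library came near the 24 h level, and the call (adjusted p = 0.0427) was kept in 1 of the 6 fits that left out a library, with adjusted p-values from 0.062 to 0.221 in the others.

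Of 17 collagens tested 0 were called lower and 1 higher (5.88%, against 4.04% of all genes tested), and their median was -0.03. The sign of the median turned on single libraries: it was -0.11 without the first 12 h library and 0.12 without the third 12 h library. The gene that rose was COL3A1, the chain of type III collagen (chromosome 2, 188974373 to 189012746, GRCh38), at 300.5, 543 and 549 CPM at 12 h and 1487, 1613 and 1439 at 24 h, well apart (log2 fold change 1.70 ± 0.32, adjusted p = 0.000484). COL3A1 had stood at 1094, 1365 and 837 CPM without cytokines, so the 12 h value was the lowest and the 24 h value the highest of the times. The most abundant collagen, COL1A2 (3611 TPM), had a log2 fold change of 0.58 ± 0.36 and COL1A1 of 0.38 ± 0.50, which did not pass. COL6A1 and COL6A3, chains of type VI collagen, had log2 fold changes of -0.09 ± 0.17 and -0.48 ± 0.21 (adjusted p = 0.811 and 0.182). COL1A2 passed in limma on log2(TPM + 1) (adjusted p = 0.0476) and COL6A3 in the 6 libraries alone (0.0416).

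Among the genes that process collagen, 2 of 20 rose (10%, against 4.04% of all genes tested) and 0 fell. Those that rose were LOXL4, a lysyl oxidase that crosslinks collagen (1.28 ± 0.19), and P4HA1, a prolyl hydroxylase subunit (0.71 ± 0.20). Other fits called members lower as well. DESeq2 and both limma fits called 2 higher and 2 lower, and the 6 libraries alone 3 higher and 4 lower. P4HA1 lost its call in 4 of the 6 fits that left out a library. Of 19 matricellular and glycoprotein genes 2 rose and 2 fell (21.1% called, against 8.64% of all genes tested). The 6 libraries alone gave 6 higher and 2 lower, and both limma fits 5 higher and 2 lower. HAS2, the main hyaluronan synthase of fibroblasts, was at 604, 743 and 561 CPM at 12 h and 85.6, 123 and 109 at 24 h, a 6.00-fold decrease, and TNFAIP6, which modifies hyaluronan, fell by 0.92 on the log2 scale. FBLN1, a fibulin, rose from 247, 153 and 382 CPM to 756, 1024 and 866, and POSTN, periostin, rose from 1.76 ± 1.45 to 7.95 ± 2.29 CPM. The most abundant, FN1 (fibronectin, 11569 TPM), had a log2 fold change of 0.65 ± 0.41 and TGFBI of 0.71 ± 0.24 (adjusted p = 0.383 and 0.0577). FN1 passed in limma on log2(TPM + 1) (adjusted p = 0.0224) and on log2(TPM + 0.1) (0.0268). TGFBI passed with DESeq2 (adjusted p = 0.0321), with no filter (0.0199), in the 6 libraries alone (0.0185) and without the third 12 h library (0.0475). CCN2 (listed as CTGF), a TGFβ target, had a log2 fold change of -0.29 ± 0.33.

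Matrix proteases and their inhibitors and receptors fell more than they rose, 5 against 1 of 15 tested, with a median of -0.60. The share called was 40%, against 8.64% of all genes tested. The plasminogen activators PLAU and PLAT and the urokinase receptor PLAUR fell together. PLAU was at 128, 80.8 and 61.3 CPM at 12 h and at 17.3, 12.6 and 16.4 at 24 h (log2 fold change -2.51 ± 0.25, adjusted p = 8.82e-09). PLAT was at 502, 400.3 and 502 CPM and then at 121, 108 and 118 (log2 fold change -2.01 ± 0.24). PLAUR was at 349, 363 and 390.2 CPM and then at 123, 137 and 124 (log2 fold change -1.52 ± 0.19). For PLAUR and PLAT the 24 h values overlapped with those without cytokines, 135, 128 and 140.5 CPM and 82.8, 141 and 203 CPM. ADAMTS1, an aggrecanase, and MMP10, a stromelysin, fell by 0.68 and 1.60; MMP10 lost its call without the first 12 h library (adjusted p = 0.125) and without the first 24 h library (0.106). MMP1 and MMP3, a collagenase and a stromelysin, had log2 fold changes of -0.76 ± 0.31 and -0.29 ± 0.30 and did not pass, although MMP1 did in the 6 libraries alone (adjusted p = 0.0111). The gene that rose was MMP2, the gelatinase of fibroblasts (chromosome 16, 55389700 to 55506691, GRCh38), at 433, 827 and 784 CPM at 12 h and 1278, 1531 and 1225 at 24 h (log2 fold change 0.98 ± 0.26, adjusted p = 0.0147). The first 12 h library was the lowest of MMP2, and without it the adjusted p was 0.139; without the second 24 h library it was 0.0739. FAP, the fibroblast activation protein, was at 133, 142 and 122 CPM at 12 h and 149.8, 152 and 152 at 24 h, without overlap but with a log2 fold change of 0.19 ± 0.14 that did not pass (adjusted p = 0.473). PTGFR, the prostaglandin F receptor, had 2.21, 6.87 and 5.08 and 5.9, 4.67 and 7.13 CPM (adjusted p = 0.701).

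Genes of TGFβ and BMP signalling were called in both directions. Of 21 tested, 3 rose, 4 fell and 14 did not pass (33.3% called, against 8.64% of all genes tested), and the median was -0.25. ID1, an inhibitor of helix-loop-helix factors that BMP signalling induces, lay at 332, 275 and 354 CPM without cytokines, at 24.4, 16.3 and 22.6 at 6 h, at 40.8, 62.1 and 58 at 12 h and at 240.2, 235 and 158 at 24 h. The 24 h values stood between those at 12 and 0 h in every library, a 3.93-fold increase from 12 h (log2 fold change 1.97 ± 0.20, adjusted p = 1.31e-08). ID3, its relative, went from 92.3, 126 and 116 CPM to 262, 225 and 232, against 286, 210.2 and 234 without cytokines (log2 fold change 1.10 ± 0.23). TGIF1, a corepressor of SMADs, rose by 0.70, and lost its call without the third 12 h library (adjusted p = 0.052) or the third 24 h library (0.112). INHBA, the activin A subunit, was at 720.5, 686 and 683 CPM at 12 h and 137, 134 and 93.9 at 24 h, a 5.72-fold decrease. SMURF2, a ubiquitin ligase for SMADs and TGFβ receptors, changed by -0.81 ± 0.19 (adjusted p = 0.0559 without the second 12 h library) and, at low counts, PMEPA1 by -1.39 ± 0.39 and SMAD3 by -1.21 ± 0.34, which lost their calls in 5 and 2 of the 6 fits that left out a library. SMAD7 and SKIL, feedback inhibitors, had log2 fold changes of -0.95 ± 0.41 and -0.04 ± 0.26 that did not pass (SMAD7 passed with no filter on low counts, adjusted p = 0.0302). GREM1, a secreted BMP antagonist and the most abundant of the list at 1084 TPM, had 2316, 2068 and 2814 CPM at 12 h and 3550.2, 4461 and 3653 at 24 h (adjusted p = 0.221; 0.01 in the 6 libraries alone). In the Notch, WNT and BMP list 1 of 10 tested rose and 1 fell (20% called, against 8.64% of all genes tested). DKK1, a secreted WNT inhibitor, rose from 103, 67.7 and 115 to 243, 304 and 258 CPM, where it had been 1298, 1129.5 and 1443 without cytokines. NOTCH2, a Notch receptor, changed by -0.68 ± 0.19, and lost its call without the third 12 h library (adjusted p = 0.147) and without the first 24 h library (0.137).

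Contractile genes rose in 3 of 20 (15%, against 4.04% of all genes tested) and fell in 0, with a median of 0.32. LMOD1, leiomodin, an actin nucleator of smooth muscle, was at 11.8, 12.1 and 10.2 CPM at 12 h and 43.2, 47.7 and 58 at 24 h, against 33.1, 27.7 and 20.3 without cytokines (log2 fold change 2.13 ± 0.25, adjusted p = 2.32e-07). TGFB1I1 (Hic-5), a focal adhesion protein, rose from 236 ± 17 to 432 ± 33.1 CPM and CNN2, calponin 2, from 431 ± 57 to 878 ± 165. CNN2 lost its call without the first 12 h library (adjusted p = 0.0549) and without the second 24 h library (0.0633). The marker of myofibroblasts, ACTA2 (smooth muscle actin), had 394, 876 and 786 CPM at 12 h and 654, 1132 and 938 at 24 h, with overlap and no call (adjusted p = 0.556), and TAGLN, the most abundant of the list at 10566 TPM, had a log2 fold change of 0.32 ± 0.31. LMOD1 and KCNJ8, a potassium channel subunit (1.75 ± 0.39), were the 2 called among the 7 smooth muscle and pericyte markers tested (28.6%, against 8.64% of all genes tested). Chosen after their values were seen, 3 further genes of the actin cytoskeleton had among the smallest p-values of all genes that rose. NEXN, an actin-binding protein of the Z-disc, was at 28.7, 23.9 and 24.7 CPM at 12 h and 98.4, 84.1 and 84.4 at 24 h (log2 fold change 1.79 ± 0.16, adjusted p = 8.58e-10). FHL2, a LIM-domain cofactor, was at 99.7, 103 and 125 CPM and then at 338, 316 and 268 (log2 fold change 1.49 ± 0.16). SYNPO2, an actin-bundling protein, was at 37.9, 26.8 and 33.7 CPM and then at 99.9, 114 and 93.4 (log2 fold change 1.64 ± 0.19). At 24 h NEXN and FHL2 were above all their libraries without cytokines, whereas SYNPO2 overlapped with its own, at 132, 109 and 94.3 CPM.

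The CArG box is the binding motif of serum response factor, the factor known for driving contractile genes, and for that reason the windows are shown. It was found on either strand in 1.03% of all matched promoters of 250 bases, in 2.73% of those of genes called higher (10 promoters) and in 0.485% of those of genes called lower (2 promoters). The AP-1 motif TGANTCA was found on either strand in 3.7% of all, 6.55% of those called lower and 5.74% of those called higher. The capitals mark a CArG box in CNN2 and FHL2 and an AP-1 motif in PLAUR and TNFAIP6, written as before; these are examples. Among the other genes described here a CArG box was also found in ACTG2, a smooth muscle actin that did not pass (log2 fold change 0.15 ± 0.39, adjusted p = 0.878), and in GBP1, which was called higher. Of the 3 contractile genes called, CNN2 alone had one recorded. None was recorded for LMOD1, TGFB1I1 or TAGLN, and a gene without a matched promoter would also have none. The AP-1 motif was also found in SERPINB2, IL1A and MMP10, called lower, in POSTN, called higher, and in CXCL8, IL11, MT2A, HSPA5 and CD68, which did not pass.
CNN2, chr19:1026494-1026553, plus strand: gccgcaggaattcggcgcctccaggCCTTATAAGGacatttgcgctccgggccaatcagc
FHL2, chr2:105438580-105438639, minus strand: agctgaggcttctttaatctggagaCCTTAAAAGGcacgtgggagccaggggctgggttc
PLAUR, chr19:43670324-43670380, minus strand: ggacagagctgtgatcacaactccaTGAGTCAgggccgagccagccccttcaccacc
TNFAIP6, chr2:151357438-151357494, plus strand: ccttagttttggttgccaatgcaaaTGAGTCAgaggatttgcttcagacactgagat
The match begins 89 bases before the start in CNN2, 101 in FHL2, 186 in PLAUR and 129 in TNFAIP6.

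The named genes with the largest increases were mostly of low abundance at 12 h. RASSF2, a RAS-association protein, rested on 0, 0 and 2 counts at 12 h and 30, 9 and 22 at 24 h, a ratio of 22.4 with an exact 95% counting interval from 5.95 to 189.5. KRT80, a keratin, had 1, 1 and 2 counts and then 33, 16 and 37 (ratio 15.8, interval 5.96 to 59.4), and WNT16, a WNT ligand, had 3, 1 and 0 and then 24, 13 and 25 (ratio 11.4, interval 4.24 to 43.2). WNT16 lost its call without the second or the third 12 h library (adjusted p = 0.0801 and 0.0873). RASSF2 and KRT80 had been at 4.73, 1.61 and 1.89 and 3.78, 2.41 and 3.51 CPM without cytokines, so both had also been detected in every library at 0 h. ERBB3, a receptor of the EGF receptor family that binds neuregulins, lay at 1.84, 1.64 and 4.35 CPM at 12 h and 12.4, 16.4 and 23.5 at 24 h (6.68-fold, adjusted p = 2.29e-05). NR1D2, the clock repressor REV-ERBβ, lay at 1.47, 1.64 and 0.363 CPM and then at 5.14, 5.61 and 7.37, and HOTAIR, a long noncoding RNA of the HOXC cluster, at 4.41, 1.31 and 0.725 and then at 10.1, 7.01 and 14. FAXDC2, HOOK2, a microtubule-linking protein, NBEA, a vesicle-trafficking protein, and CCDC81 had log2 fold changes of 2.56, 2.41, 2.41 and 2.37. NBEA rested on 2, 3 and 3 counts at 12 h and 20, 14 and 23 at 24 h (ratio 5.24, interval 2.49 to 12.7), and at 24 h it was still below its level without cytokines, 11.3, 14.6 and 10.8 CPM.

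Of the interferon-stimulated genes 7 of 21 tested were higher and 1 was lower at 24 h (38.1% called, against 8.64% of all genes tested), with a median of 0.61. The median rested on the third library of each time. It was 0.27 without the third 12 h library and 0.20 without the third 24 h library, below the median of the cell cycle list in those fits (0.51 and 0.43), and between 0.69 and 1.08 when one of the other 4 was left out. IFIT1 and IFIT2, which bind foreign RNA, were both among the 12 named genes with the largest increases. IFIT1 lay at 39.7, 72.3 and 16 CPM at 12 h and 175, 157 and 353 at 24 h, with a wide spread at both times and no overlap (log2 fold change 2.42 ± 0.46, adjusted p = 0.000534). IFIT2 lay at 6.62, 7.2 and 5.08 CPM and then at 29.7, 17.8 and 48 (log2 fold change 2.36 ± 0.40). In IFIT1 and IFIT2 the third 12 h library was the lowest and the third 24 h library the highest of the 6. IFIT3, GBP1, GBP2 and IFI6, the most abundant of the list at 529.8 TPM, rose by 1.51, 0.88, 1.01 and 1.22 on the log2 scale. The list's count of genes called higher lay between 4 and 9 over the alternatives, and IFI6 lost its call in 3 of the 6 fits that left out a library. IFIT3 and GBP2 lost theirs without the third 12 h library (adjusted p = 0.0886 and 0.052) and without the third 24 h library (0.118 and 0.053). IRF1, a transcription factor that is an early NF-κB target, fell from 62.9, 76.9 and 56.9 CPM to 23.4, 22.9 and 29.

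Of 26 cell cycle genes tested 10 rose (38.5%, against 4.04% of all genes tested), 0 fell and 16 did not pass. Of the 26, 23 had a log2 fold change above 0, and the median was 0.41. The replicative helicase was represented by MCM6, at 43, 49.7 and 46.1 CPM at 12 h and 74.6, 99.1 and 76.8 at 24 h (log2 fold change 0.84 ± 0.15), MCM2 (0.74 ± 0.15), MCM5 (0.80 ± 0.17) and MCM4. The polymerase clamp PCNA rose by 0.74, and the mitotic genes CCNB2, CCNA2, CDK1, CENPF and TOP2A rose by between 0.56 and 0.74. PCNA, MCM4, CCNA2, CDK1, CENPF and TOP2A each lost their calls in 2 to 4 of the 6 fits that left out a library. The count lay between 5, without the second 12 h or the second 24 h library, and 13, in the 6 libraries alone; in limma on log2(TPM + 1) MCM6, MCM2 and CCNB2 lost their calls (adjusted p = 0.0949, 0.182 and 0.128). RRM2, a ribonucleotide reductase subunit and the most abundant of the list at 281 TPM, had a log2 fold change of 0.62 ± 0.21 that did not pass here (adjusted p = 0.0611) and passed with DESeq2 (0.0206), in the 6 libraries alone (0.00871) and without the third 12 h library (0.0489).

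Genes of cholesterol and fatty acid synthesis and its regulation rose in 6 of 21 and fell in 1, with a median of 0.24. The share called was 33.3%, against 8.64% of all genes tested. INSIG1, a sterol-regulated brake on the pathway, rose by 1.40, FDFT1, squalene synthase, by 0.76, and MSMO1 and SCD by 0.68 each; these last 2 lost their calls in 1 and 3 of the 6 fits that left out a library. SQLE, squalene epoxidase, went the other way, from 80.5, 65.4 and 78.7 CPM to 46.8, 46.7 and 38.8. The count of genes called higher lay between 2 and 7 over the alternatives, and FDFT1 and SQLE lost their calls in limma on log2(TPM + 1) (adjusted p = 0.0588 and 0.0874). FDPS, the most abundant at 139.9 TPM, had a log2 fold change of 0.39 ± 0.16 and did not pass.

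NRF2 targets, known from the oxidative stress response, were listed together with metallothioneins and zinc transporters. Of the 14 tested 5 fell and 1 rose (42.9% called, against 8.64% of all genes tested), with a median of -0.19. HMOX1, heme oxygenase, was at 39.4, 51 and 35.9 CPM at 12 h and 8.75, 5.61 and 5.94 at 24 h (log2 fold change -2.59 ± 0.30). TXNRD1, thioredoxin reductase, was at 1206, 1251 and 1273 CPM and then at 358, 389 and 351 (log2 fold change -1.77 ± 0.25), below its level without cytokines of 1177, 1265 and 1339.8. NQO1, a quinone reductase, fell by 0.97, and SLC39A14, a zinc and iron importer, by 0.79. SLC39A14 lost its call in all 6 fits that left out a library. MT1M, a metallothionein, rose from 7.36, 8.18 and 5.08 to 15.4, 23.4 and 21.4 CPM, with the reservation that metallothionein genes are near-identical copies. MT2A, the most abundant at 44479 TPM, had a log2 fold change of -0.03 ± 0.34. Of 16 genes of ATF4 and amino acid supply 2 rose and 1 fell (18.8% called, against 8.64% of all genes tested). They were PSAT1, of serine synthesis (1.36 ± 0.20), DDIT4, an mTORC1 inhibitor (1.63 ± 0.31), and SLC7A11, the cystine transporter (-0.95 ± 0.26, lost in 4 of the 6 fits that left out a library). Genes of folding and secretion in the endoplasmic reticulum fell in 3 of 22 (13.6%, against 4.6% of all genes tested) and rose in 0. SDF2L1, DNAJB9 and DNAJC3, which act with chaperones, fell by 1.13, 0.99 and 0.61, and DNAJC3 lost its call in all 6 fits that left out a library. HSPA5, the chaperone BiP and the most abundant of that list, had 3495, 3119 and 3861 CPM at 12 h and 2497, 2340.1 and 1988 at 24 h without overlap and did not pass (adjusted p = 0.233; 0.0173 in the 6 libraries alone). Of 20 ribosome biogenesis genes 0 were called higher and 2 lower (10%, against 4.6% of all genes tested), NOP16 (-1.08 ± 0.24) and RRP12 (-0.64 ± 0.19), and RRP12 lost its call in 4 of those 6 fits; limma on log2(TPM + 1) called 0 of the 20. Of 18 glycolysis and hypoxia genes 0 were called lower and 1 higher (5.56%, against 4.04% of all genes tested), BNIP3, a mitophagy receptor (0.91 ± 0.19); GAPDH had a log2 fold change of -0.01 ± 0.36.

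**Figure D3:**
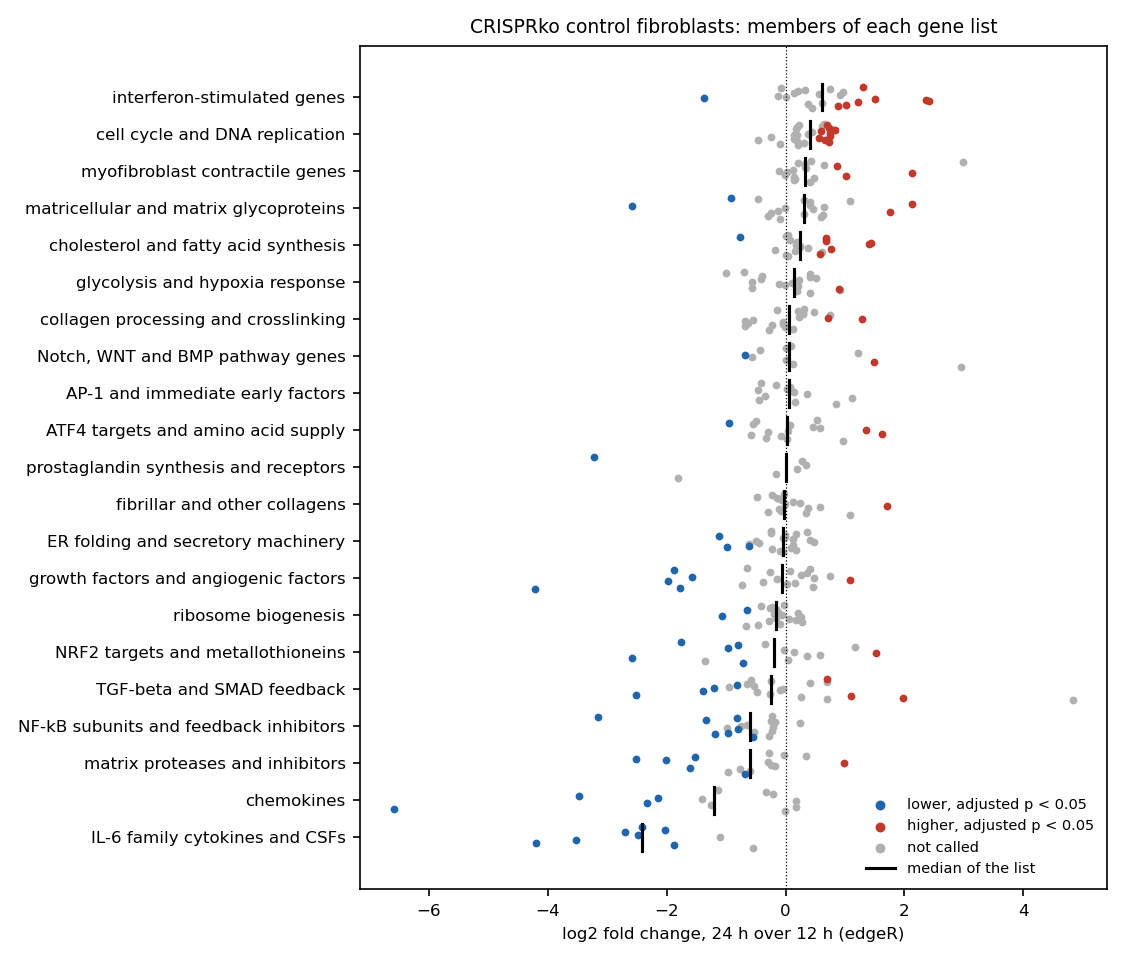
Each point is a tested member of a gene list, placed by its log2 fold change from 12 to 24 h in CRISPRko control fibroblasts (x axis); blue and red mark genes called lower and higher at an adjusted p under 0.05, grey those not called, and the black bar the median of the list. The lists run from the cytokines, with a median of -2.41, at the bottom to the interferon-stimulated genes, with a median of 0.61 that was 0.27 without the third 12 h library and 0.20 without the third 24 h library, at the top.

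The same step of time was examined in libraries that share none with the 6. In GLIS3 CRISPRko cells 1789 of the 10962 genes changed between 12 and 24 h (16.3%), with 938 higher (8.56%) and 851 lower (7.76%). The third 24 h library of that group had 31.4% of its counts in the 50 most abundant genes, against 44.4% and 39.04% in the other two. Without it 1220 genes were called, but 1220 were also called without the second 12 h library, where that share was 39.8%. Leaving out any of the others gave between 1304 and 2069. Of the 443 genes higher in controls 286 were also called higher there, 64.6% of the control list and 30.5% of the GLIS3 CRISPRko list, and of the 504 lower genes 394 were also called lower, 78.2% and 46.3%. Of the 947 genes, 0 were called in the opposite direction. The test of the difference itself, the change in GLIS3 CRISPRko cells less the change in controls, called 0 of 10962 genes by edgeR and 0 by DESeq2. Without adjustment 630 had a p-value under 0.05, the smallest adjusted p was 0.534, and with no filter on low counts 19 genes were called. A larger number of calls in one group does not show a larger change, and this test did not detect one for any gene at this depth.

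In VP64_Ctrl cells 920 of 10980 genes changed (8.38%), with 503 higher (4.58%) and 417 lower (3.8%), and in VP64_A cells 701 (6.38%), with 339 higher (3.09%) and 362 lower (3.3%). Of the 436 control genes that were higher and tested there, 213 were called higher in VP64_Ctrl (48.9% of the control list, 42.3% of the VP64_Ctrl list) and 136 in VP64_A (31.2% and 40.1%). Of the 499 lower genes tested, 255 were called lower in VP64_Ctrl (51.1% and 61.2%) and 188 in VP64_A (37.7% and 51.9%). The 436 genes had median log2 fold changes of 0.93 in controls, 0.65 in VP64_Ctrl and 0.52 in VP64_A, and the 499 had -0.95, -0.66 and -0.56; the genes were chosen by the control values, and the differences between the arms were not tested. The decrease of CSF2 was -4.95 in GLIS3 CRISPRko, -2.77 in VP64_Ctrl and -2.09 in VP64_A on the log2 scale, and that of ANGPTL4 was -3.95, -3.04 and -3.13. LMOD1 had log2 fold changes of 2.27, 3.21 and 2.50, and IFIT2 of 3.82, 4.56 and 3.68, all called. For CSF1 the values were -2.30, -0.14 and 0.05, the last 2 not called (adjusted p = 0.708 and 0.915). MMP2 was called in none of the 3 groups, with log2 fold changes of 0.55, 0.51 and 0.47, and neither was IL11, with -0.17, -0.54 and -0.68. Of the 21 interferon-stimulated genes 13 rose in GLIS3 CRISPRko, 14 in VP64_Ctrl and 19 in VP64_A, beside 7 in the controls. Of the 9 cytokines 8, 6 and 4 fell, beside 7 in the controls, and of the 26 cell cycle genes 10, 7 and 8 rose, beside 10. Other lists recurred less. Of the 18 NF-κB pathway genes 9, 2 and 3 fell, beside 7 in the controls. The contractile genes had medians of -0.11, 0.14 and 0.02, beside 0.32 in the controls, and 1, 3 and 2 of them rose, beside 3.

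**Figure D4:**
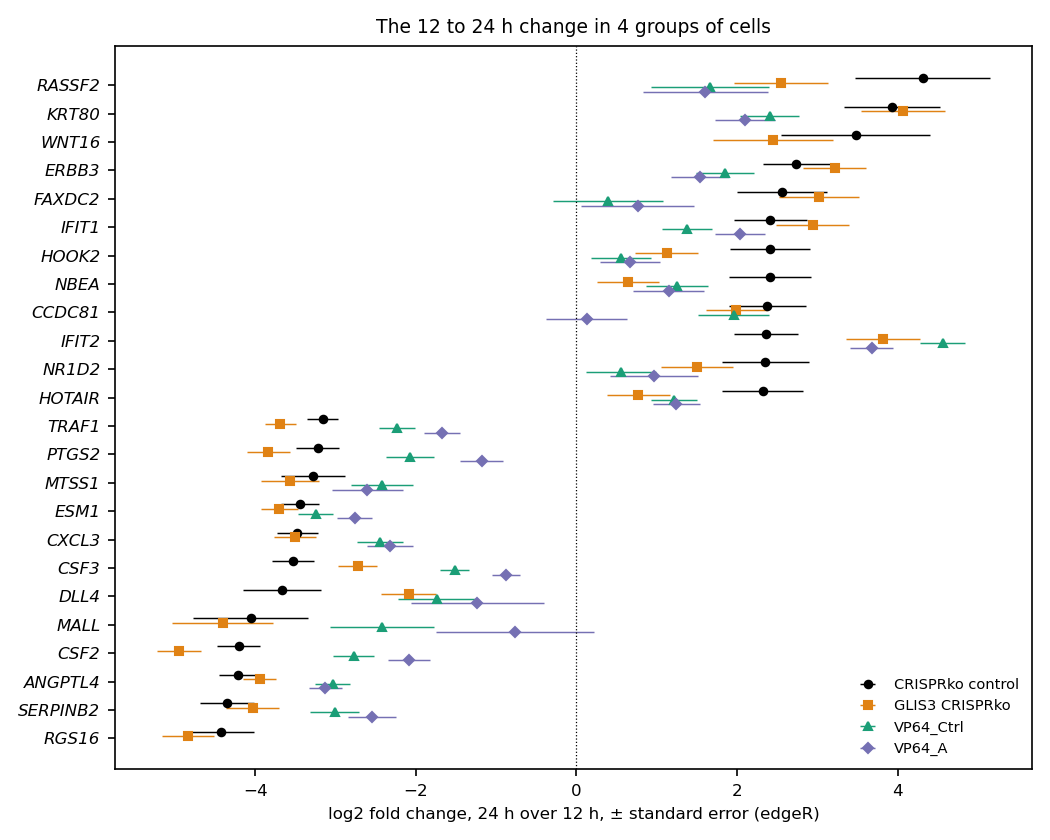
Log2 fold change from 12 to 24 h (x axis, points, with standard errors from edgeR as bars) of the 24 named genes with the largest changes in CRISPRko control fibroblasts, in these cells (black circles), GLIS3 CRISPRko (orange squares), VP64_Ctrl (green triangles) and VP64_A (purple diamonds). Every point of the 12 lower genes lies below 0 and every point of the 12 higher genes above 0, where the gene was tested; RGS16 and WNT16 were not tested in the VP64 groups.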

How the data were processed

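RNA was sequenced from 48 libraries, of which the 6 of CRISPRko control fibroblasts at 12 and 24 h with TGFβ and IL-1β are described here. Groups were taken from the sample labels. The authors trimmed reads with Trim Galore, aligned them with STAR to GRCh38 and estimated gene abundance with Salmon, in versions not given in the sources used here; the counting strand was not given either. They deposited estimated counts, not normalized between libraries, and TPM values, which are scaled for transcript length and to a common total, for 29744 genes in 48 columns.

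Estimated counts were rounded (6.38% were not whole numbers) and fitted with edgeR 4.0.16 (R 4.3.3) over the 24 libraries of the CRISPRko arm in 8 groups, with TMM factors, low counts removed by filterByExpr at a minimum count of 10 and a minimum total of 15, and the two-sided quasi-likelihood F test, taking the contrast of control 24 h minus 12 h. The CRISPRa arm was fitted separately. Benjamini-Hochberg adjustment covered every gene that passed the filter, and genes under 0.05 were called. Counting intervals are exact binomial intervals of pooled counts at 95% and cover counting error only.

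The members and gene lists were chosen with earlier results of these data known. Named genes are, in each direction, the 12 with the largest log2 fold change among called genes whose libraries did not overlap and with at least 5 CPM in the higher group, the genes the study names for this experiment, and up to 4 called genes and the most abundant gene of each list. Genes named beyond this rule were chosen after their values were seen: those the text says so of, and list members given only as values or counts. Some genes that the rule or the text would name are not reported here. Older symbols were matched through RefSeq synonyms. Gene positions are from GENCODE on GRCh38, and promoters are 250 bases before the RefSeq start.

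The alternatives tried were DESeq2 1.42.0, its size factors in edgeR, no filter, a replicate block, the 6 or the 12 control libraries alone, limma 3.58.1 on log2 TPM with a pseudocount of 1 or of 0.1, other thresholds, and each library left out. No shared effect of the replicate number was detected, and the libraries were treated as unpaired. Among pairs of replicates none held identical values, and each pair differed beyond sampling noise.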

Additional observations from a re-analysis of the deposited data

Results flagged for a closer look

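Of the named genes that rose in CRISPRko control fibroblasts between 12 and 24 h, 3 had their VP64_A libraries wholly lower at 24 h than at 12 h. The search covered the named genes and any gene called higher in controls and lower in VP64_A. In controls, 14.1% of all genes tested had their libraries wholly lower at 24 h, and the share in VP64_A was not counted. LOXL4 had a log2 fold change of 1.28 in controls and -0.33 in VP64_A, DDIT4 of 1.63 and -0.29, and IVNS1ABP of 0.60 and -0.48. In VP64_Ctrl the values were 0.43, 1.09 and -0.02, and in GLIS3 CRISPRko 0.90, 1.09 and 0.19. IVNS1ABP was the 1 gene of the 947 called in opposite directions in controls and VP64_A (adjusted p = 0.00629 and 0.0296). LOXL4 and DDIT4 were not called in VP64_A. The 2 arms were fitted separately, and the difference between controls and VP64_A was not tested. TNFAIP3, which was not called in controls, had a log2 fold change of -0.25 there, 0.52 in VP64_Ctrl and 0.60 in VP64_A, again without overlap between times and with the difference not tested. Groups of 3 libraries are too small for a search for single outlying libraries.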

How the results depend on the processing

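The 947 genes called (443 higher, 504 lower) became 952 with DESeq2, 943 with DESeq2's size factors, 1012 with no filter, 1274 in the 6 libraries alone and 1044 in the 12 control libraries. limma on log2(TPM + 1) called 411 (171 higher, 240 lower) and on log2(TPM + 0.1) 409 (179 and 230). An unadjusted p under 0.05 gave 2330 (1189 and 1141), 3235 in GLIS3 CRISPRko, 2320 in VP64_Ctrl, 2106 in VP64_A and 630 for the difference between GLIS3 CRISPRko and controls, which had 19 calls with no filter. A log2 fold change of at least 1 as well left 443 (207 and 236). Leaving out each library gave 525 to 697 genes in controls (227 to 305 higher, 298 to 405 lower), 1220 to 2069 in GLIS3 CRISPRko, 604 to 734 in VP64_Ctrl and 395 to 816 in VP64_A. In those control fits the medians of the lists lay between -1.31 and -0.70 for chemokines, -0.35 and -0.06 for TGFβ and BMP genes, -0.28 and -0.05 for NRF2 targets and metallothioneins, 0.15 and 0.39 for contractile genes and 0.15 and 0.36 for cholesterol synthesis. The fit with a replicate block called 947 genes (447 higher, 500 lower), and of the named genes IGFBP3 lost its call in it (adjusted p = 0.0575). Same-numbered libraries at 12 and 24 h had correlations of -0.0031, -0.0029 and -0.056 in their deviations from the group means. Libraries with unlike numbers had -0.030 to 0.033. No shared effect of the replicate number was detected, which does not exclude that same-numbered libraries were paired. limma on log2(TPM + 1) lost the calls of ADAMTS1 (adjusted p = 0.141), SMURF2 (0.183), KCNJ8 (0.0576), NOP16 (0.0733) and IVNS1ABP (0.184), and with 0.1 in place of 1 that of IRAK2 (0.114). Of the 158 genes chosen by the rule or afterwards, 118 were called; 27 of these lost the call in limma on log2(TPM + 1), 14 to 20 when a library was left out, 1 with no filter (NFKBIB, 0.0629) and 0 with DESeq2 or its size factors. Of the 118, 0 reversed in direction under these alternatives. Depth of 2485059 to 5560364 counts a library limits genes of a few counts. The alternatives in the VP64 groups, and libraries left out of GLIS3 CRISPRko, were added after seeing the data.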

Other observations

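The following 6 enzymes of polyamine and nucleoside metabolism were chosen after their values were seen, because they fell between 12 and 24 h, and the other enzymes of these pathways were not counted. ODC1, the first enzyme of polyamine synthesis, lay at 118, 132 and 143 CPM at 12 h and 40.9, 45.3 and 37.1 at 24 h, the level it had without cytokines (42.8, 38.3 and 37.8), with a log2 fold change of -1.68 ± 0.16 (adjusted p = 3.4e-09). SMOX, spermine oxidase, went from 36.3 ± 10.3 to 7.62 ± 2.01 CPM and SAT1, the acetyltransferase that starts polyamine breakdown, from 171 ± 28.5 to 68.3 ± 2.71 (means ± SD, n = 3 each). AMPD3, an AMP deaminase, was at 152, 147 and 137 CPM at 12 h and 30.5, 25.7 and 35.4 at 24 h, among the smallest p-values of all genes (-2.23 ± 0.16, adjusted p = 3.83e-12). PNP, purine nucleoside phosphorylase, and UPP1, uridine phosphorylase, changed by -1.93 ± 0.15 and -1.52 ± 0.20 on the log2 scale. In GLIS3 CRISPRko, VP64_Ctrl and VP64_A the log2 fold changes were -1.84, -1.15 and -1.52 for ODC1, -2.04, -1.90 and -2.35 for SMOX, and -2.10, -2.05 and -1.52 for AMPD3.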
